A study of Homo sapiens with 9 samples.

Results

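The 9 genes described here encode parts of the MHC class I antigen presentation pathway. They are the heavy chains HLA-B, HLA-C, HLA-E and HLA-F, the light chain B2M, the peptide transporter subunits TAP1 and TAP2, the loading factor TAPBP and the immunoproteasome subunit PSMB9. They were chosen by name, with earlier results of these data known. All 9 were found among the 60609 genes of the deposited counts and passed the low-count filter, which left 26412 genes to test. RNA was sequenced from 3 genotypes of MCF-10A, an immortal but non-tumorigenic line of human breast epithelium, and each genotype had 3 libraries. The H1047R and E545K groups are knock-in lines that carry the named change in PIK3CA, the gene of a catalytic subunit of phosphoinositide 3-kinase, and WT is the parental line. Neither the number of clones nor whether replicates were separate cultures is given in the labels, so the spread behind each p-value may be technical only. The H1047R and E545K lines were kept without epidermal growth factor (EGF, 0 ng/ml) and WT with 20 ng/ml. All 3 shared 5% horse serum, insulin, hydrocortisone and cholera toxin, and the last 24 h in medium with 1% stripped serum and 0.2 ng/ml EGF. Genotype and maintenance EGF thus cannot be told apart wherever a knock-in line is set against WT.

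MHC class I molecules show fragments of the cell's own proteins on its surface, where cytotoxic T cells and natural killer cells read them. Proteasomes cut proteins into peptides, and interferon replaces some of their standard subunits with immunoproteasome subunits. TAP1 and TAP2 form the pump that carries peptides into the endoplasmic reticulum, where TAPBP (tapasin) holds empty class I molecules at the pump and helps them to bind a peptide. A heavy chain is stable at the surface only when bound to the light chain beta-2-microglobulin, the product of B2M. Most of these genes are known to be induced together by interferon, through promoter elements bound by IRF, NF-kB and the NLRC5-RFX-NFY complex.

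Total gene counts were 377093507 to 605972919 in H1047R, 95533991 to 134245702 in E545K and 95091894 to 136132315 in WT. The H1047R libraries also stood apart in makeup. Genes annotated as miscellaneous RNA took 8.54 to 8.87% of counts in H1047R, 4.59 to 4.9% in E545K and 4.67 to 4.74% in WT. The H1047R counts stand in a table of their own, so table and genotype cannot be told apart in either comparison with H1047R. The biological coefficient of variation was 0.216 within H1047R, 0.0286 within E545K and 0.0328 within WT. The common estimate over all 9 libraries was 0.118. The test fitted each gene's spread over all 9 libraries together, and so did not keep the spreads of the genotypes apart. PIK3CA, whose allele gene counts do not show, averaged 42.7 ± 1.13, 38.1 ± 0.909 and 46.1 ± 2.03 CPM (SD, n = 3) in H1047R, E545K and WT.

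In bulk RNA, fewer cells of a type and less RNA per cell cannot be told apart. RNA for most of the pathway was higher in H1047R than in either of the other genotypes, and the rise was uneven. HLA-B, HLA-F and B2M rose most, HLA-C, HLA-E, TAP1 and TAP2 rose less, and TAPBP and PSMB9 were not called against WT. In E545K the pattern was a different one: HLA-F rose, while HLA-B, HLA-C, HLA-E, B2M and TAPBP fell by smaller amounts. All fold changes below are log2 values ± an approximate standard error from edgeR's quasi-likelihood test, with Benjamini-Hochberg adjustment over the 26412 genes, and the threshold for a call was an adjusted p under 0.05. Levels are CPM, counts divided by the TMM-scaled library size and set to 1000000.

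**Figure D1:**
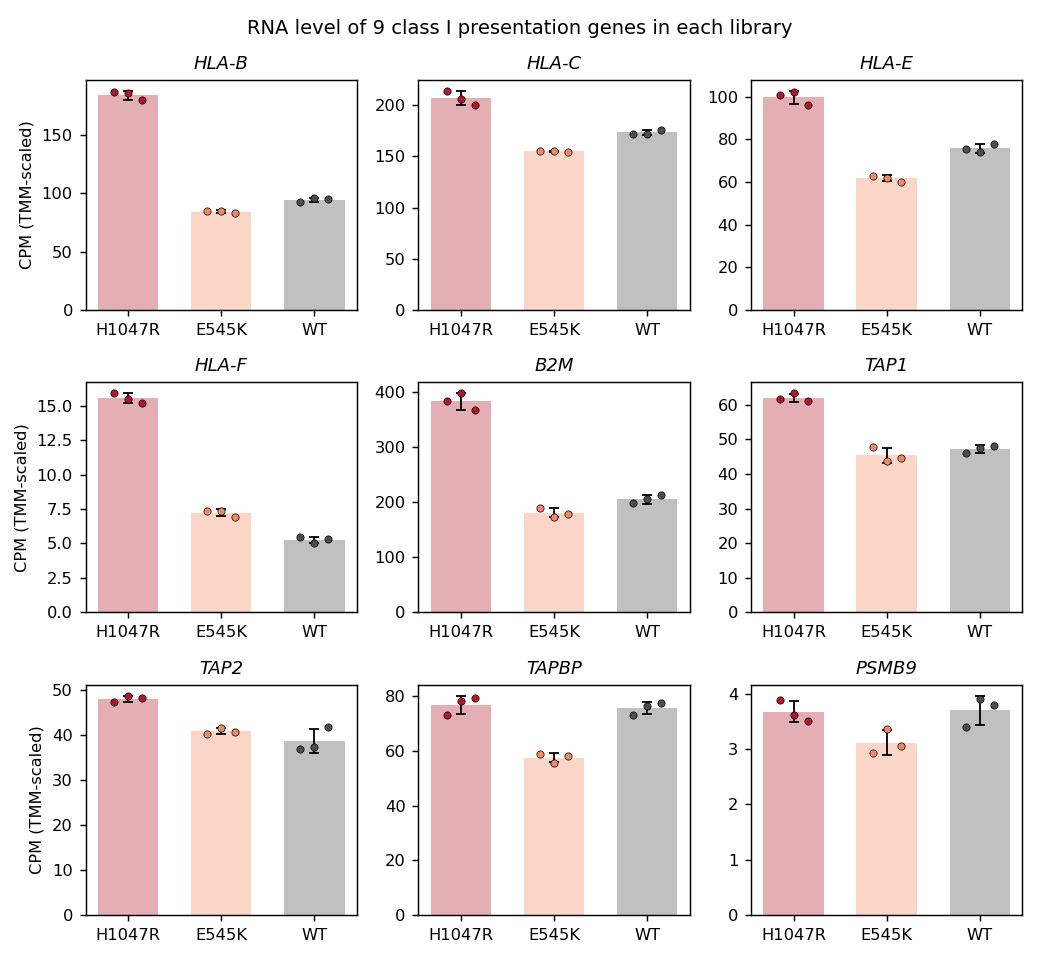
CPM of the 9 genes in each of the 9 libraries (points), with the mean (bars) and SD (error bars) of the 3 libraries of H1047R, E545K and WT. Each panel has its own axis from 0. The H1047R points lie above all others for HLA-B, HLA-C, HLA-E, HLA-F, B2M, TAP1 and TAP2, at 180 to 187 CPM for HLA-B and 368 to 398 CPM for B2M.

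The first group is the heavy chains, which bind the peptide. HLA-B (ENSG00000234745.11, chromosome 6, 31269491 to 31357188, minus strand, hg38), a classical heavy chain that presents peptides to cytotoxic T cells, had 187, 186 and 180 CPM in H1047R, 84.8, 85.2 and 82.9 CPM in E545K, and 92.5, 95.7 and 95.6 CPM in WT. Every H1047R library was well above every other library, and the E545K libraries lay just below the WT libraries without overlap. The difference was 0.96 ± 0.04 in H1047R against WT (adjusted p = 1.56e-11), 1.13 ± 0.04 in H1047R against E545K (5.33e-12) and −0.17 ± 0.04 in E545K against WT (0.00246). The light chain B2M (ENSG00000166710.20, chromosome 15, 44711487 to 44718877, plus strand), which lies outside the MHC, had 383, 398 and 368 CPM in H1047R, 190, 174 and 178 CPM in E545K, and 198, 205 and 214 CPM in WT. It followed the same order as HLA-B, again with no overlap between any 2 groups. Its difference was 0.90 ± 0.05 in H1047R against WT (4.04e-10), 1.08 ± 0.05 in H1047R against E545K (8.76e-11) and −0.19 ± 0.05 in E545K against WT (0.00509).

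HLA-C (ENSG00000204525.16, chromosome 6, 31268749 to 31272130, minus strand) is the other classical heavy chain here, and it is also a ligand of killer cell receptors. It had 214, 206 and 200 CPM in H1047R, 155, 155 and 154 CPM in E545K, and 172, 172 and 176 CPM in WT. The order of the groups was that of HLA-B, but the rise in H1047R was smaller, at 0.26 ± 0.04 against WT (adjusted p = 3.7e-05) and 0.42 ± 0.04 against E545K (2.59e-07). Against WT, E545K differed by −0.17 ± 0.04 (0.00303). When libraries were scaled by their totals alone, the E545K differences of HLA-B, HLA-C and B2M kept their sign but were no longer called, at −0.07 (adjusted p = 0.0963), −0.07 (0.0619) and −0.09 (0.101).

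The other 2 heavy chains belong to the less variable, non-classical class I genes. HLA-E (ENSG00000204592.9, chromosome 6, 30489509 to 30494194, plus strand) presents leader peptides of other class I chains to an inhibitory receptor of natural killer cells. It had 101, 102 and 96.2 CPM in H1047R, 62.9, 62.1 and 60.2 CPM in E545K, and 75.7, 73.9 and 78.0 CPM in WT, so that no 2 groups overlapped. It rose by 0.39 ± 0.04 in H1047R against WT (adjusted p = 7.63e-07) and by 0.69 ± 0.04 against E545K (2.27e-09), and it fell by 0.30 ± 0.04 in E545K against WT (3.63e-05). HLA-F (ENSG00000204642.14, chromosome 6, 29722775 to 29738528, plus strand), a non-classical chain found mainly inside cells, had 15.9, 15.5 and 15.2 CPM in H1047R, 7.38, 7.37 and 6.94 CPM in E545K, and 5.45, 5.01 and 5.32 CPM in WT. It was the least abundant heavy chain and the 1 gene of the 9 that rose in both knock-in lines. Its difference was 1.56 ± 0.06 in H1047R against WT (1.79e-11), 0.46 ± 0.06 in E545K against WT (3.95e-05) and 1.10 ± 0.06 in H1047R against E545K (8.44e-10).

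B2M had the highest CPM of the 9 in every genotype, at 383, 181 and 206 in H1047R, E545K and WT, beside 207, 155 and 173 for HLA-C. Levels were also set per kilobase of exon, with all annotated exon bases of a gene as its length, 6079 for B2M and 2507 for HLA-C. A transcript can be shorter than this, so the order of genes per kb depends on that length. Per kb, HLA-C had the highest value of the 9 in every genotype, at 82.5 ± 2.89, 61.6 ± 0.189 and 69.1 ± 1.04 CPM per kb (SD, n = 3) in H1047R, E545K and WT. B2M followed with 63 ± 2.51, 29.7 ± 1.35 and 33.8 ± 1.28, and HLA-B with 60.4 ± 1.11, 27.6 ± 0.411 and 31 ± 0.594. B2M and HLA-B differed by less than the sum of their SDs in H1047R, and by more than it in E545K and WT. HLA-E had 34.1, 21.1 and 26 CPM per kb, TAPBP 15.2, 11.4 and 15, TAP1 12.9, 9.45 and 9.81, and TAP2 7.55, 6.42 and 6.07, in the same order of genotypes. HLA-F (3.6, 1.68 and 1.22) and PSMB9 (1.1, 0.934 and 1.11) were lowest, and in WT these 2 differed by less than the sum of their SDs.

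Ratios of counts within a library do not depend on how libraries are scaled. HLA-B counts over HLA-C counts were 0.87, 0.901 and 0.902 in H1047R, 0.548, 0.551 and 0.538 in E545K, and 0.538, 0.558 and 0.542 in WT. The H1047R libraries stood apart from both other groups, whose means were both 0.546. HLA-B made up 36.4% ± 0.333 of the summed counts of the 4 heavy chains in H1047R, 27.4% ± 0.141 in E545K and 27.1% ± 0.474 in WT, while HLA-C made up 40.9% ± 0.477, 50.2% ± 0.387 and 49.6% ± 0.0959 (SD, n = 3). HLA-F took 3.07% ± 0.021 in H1047R, 2.35% ± 0.057 in E545K and 1.51% ± 0.0655 in WT, with no overlap between groups.

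The 4 heavy chains summed to 506 ± 13.4 CPM in H1047R, 308 ± 3.3 CPM in E545K and 349 ± 5.34 CPM in WT (SD, n = 3). B2M counts over summed heavy chain counts were 0.74, 0.782 and 0.748 in H1047R, 0.612, 0.561 and 0.587 in E545K, and 0.574, 0.591 and 0.602 in WT. The H1047R libraries lay above all others, and the E545K and WT libraries overlapped (exact permutation test, two-sided, p = 0.9). For each ratio that did not overlap between 2 groups the exact two-sided permutation p was 0.1, the smallest that 3 against 3 libraries can give. There were 36 such tests, 12 ratios in 3 comparisons, and none could reach 0.05 even before adjustment.

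**Figure D2:**
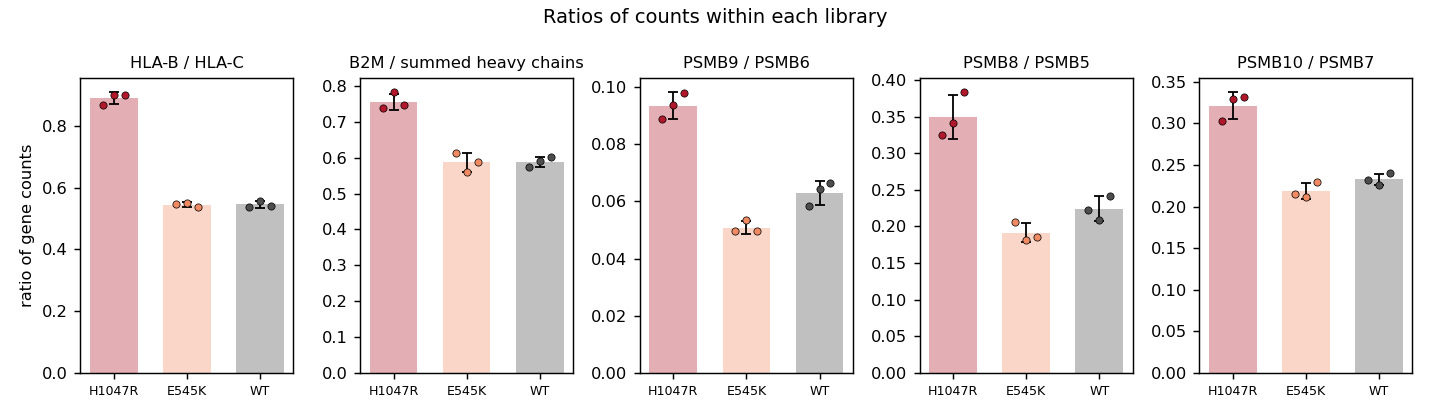
Ratios of gene counts within each library (points, no unit), with mean (bars) and SD (error bars) of the 3 libraries of H1047R, E545K and WT, on axes from 0. HLA-B over HLA-C averaged 0.891 in H1047R and 0.546 in E545K and WT, and each immunoproteasome subunit over its standard counterpart was highest in H1047R.

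The promoters of HLA-B, B2M and HLA-C are shown because the first 2 genes rose almost alike in H1047R while HLA-C, next to HLA-B on the chromosome, rose less. The sequences are the 250 bases before the RefSeq transcription start (GRCh38.p14), read 5′ to 3′ along the gene. They are the reference sequence and not that of the MCF-10A alleles. Capitals mark matches, on either strand, of the interferon-stimulated response element core (GAAA, any 2 bases, GAAA), the NF-kB consensus, the cyclic AMP response element (CRE) core TGACG and the CCAAT box. CRE-like and CCAAT letters are known parts of the SXY module to which RFX, CREB and NFY factors bind in class I promoters.
HLA-B (chr6:31357180-31357429, minus strand): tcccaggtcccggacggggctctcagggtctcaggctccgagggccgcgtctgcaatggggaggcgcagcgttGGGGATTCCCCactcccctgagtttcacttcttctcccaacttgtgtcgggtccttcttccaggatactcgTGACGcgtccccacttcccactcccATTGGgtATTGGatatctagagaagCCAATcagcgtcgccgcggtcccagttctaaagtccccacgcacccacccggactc
HLA-C (chr6:31272093-31272342, minus strand): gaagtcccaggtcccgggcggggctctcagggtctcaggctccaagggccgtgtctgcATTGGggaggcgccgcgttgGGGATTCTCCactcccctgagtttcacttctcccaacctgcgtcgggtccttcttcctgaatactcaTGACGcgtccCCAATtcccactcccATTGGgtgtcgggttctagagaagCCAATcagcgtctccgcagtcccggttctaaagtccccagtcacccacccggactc
B2M (chr15:44711267-44711516, plus strand): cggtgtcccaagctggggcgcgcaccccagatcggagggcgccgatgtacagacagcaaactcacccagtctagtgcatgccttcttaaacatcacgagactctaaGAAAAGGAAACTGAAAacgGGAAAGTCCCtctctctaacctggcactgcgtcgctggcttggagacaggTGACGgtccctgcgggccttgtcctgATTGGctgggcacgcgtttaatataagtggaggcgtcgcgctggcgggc
Read from the left, the capitals of HLA-B are 2 overlapping NF-kB matches at bases −177 to −167 from the start, a CRE core at −106 to −102 and 3 CCAAT boxes at −81 to −52. HLA-C has its NF-kB match at −172 to −163 and its CRE core at −105 to −101. The B2M window begins with 2 overlapping interferon-response cores at −144 to −129, followed by an NF-kB match at −125 to −116, a CRE core at −75 to −71 and a CCAAT box at −49 to −45.

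A window was found for 8 of the 9 genes, HLA-E being the one without. The interferon-response core was in the windows of B2M, HLA-F, TAP1, TAP2 and TAPBP, and in 3.02% of all 35116 windows. The NF-kB consensus was in those of B2M, HLA-B, HLA-C, TAP1 and TAPBP, and in 9.96% of all windows. The CRE core was in those of B2M, HLA-B, HLA-C, PSMB9 and TAP2 (21.2% of all windows), and CCAAT in those of B2M, HLA-B, HLA-C, HLA-F, PSMB9 and TAP1 (32%). The GC box GGGCGG, drawn in the motif map but not in capitals above, was in those of HLA-C, PSMB9, TAP1, TAP2 and TAPBP (42.6%). A match is only a run of letters and shows no binding. The search allowed no mismatch to a pattern. A window without a match, such as those of HLA-B and HLA-C for the interferon-response core, may thus still hold a variant of the element.

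**Figure D3:**
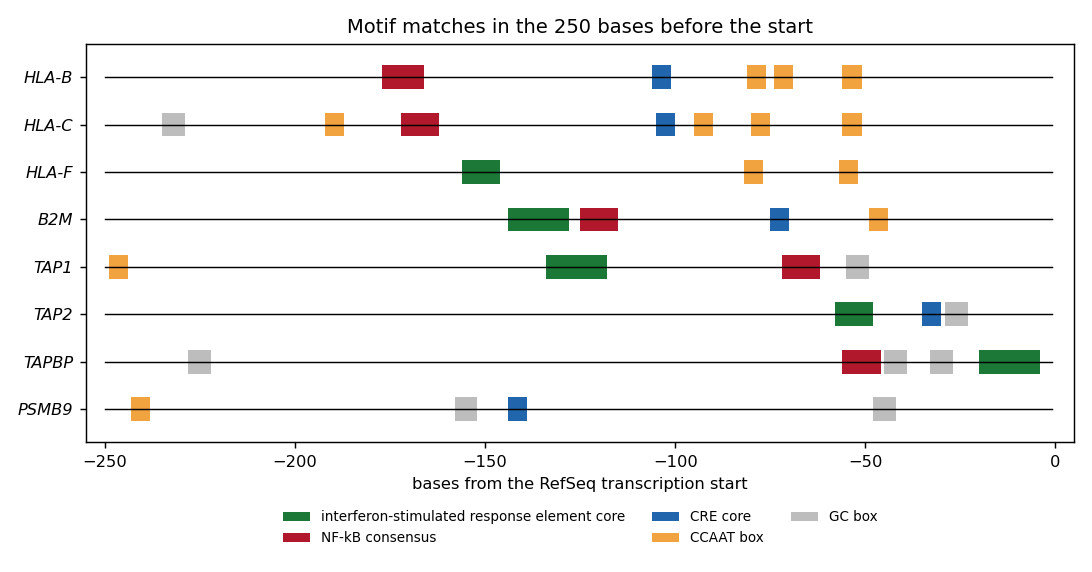
Motif matches on either strand in the 250 bases before the RefSeq transcription start of 8 of the 9 genes, with bases from the start on the horizontal axis and the first of the TAP1 windows drawn. The NF-kB matches of HLA-B and HLA-C lie at almost the same distance from the start, and B2M, HLA-F, TAP1, TAP2 and TAPBP hold the interferon-response core.

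The peptide pump is made of TAP1 and TAP2. TAP1 (ENSG00000168394.11, chromosome 6, 32845209 to 32853978, minus strand) had 61.6, 63.3 and 61.1 CPM in H1047R, 47.8, 43.7 and 44.7 CPM in E545K, and 45.9, 47.4 and 48.1 CPM in WT. The H1047R libraries lay above all others, and the E545K and WT libraries overlapped. TAP1 rose by 0.40 ± 0.04 in H1047R against WT (adjusted p = 1.47e-06) and by 0.45 ± 0.04 against E545K (4.92e-07), and in E545K against WT the value was −0.05 ± 0.04 (0.386). TAP2 (ENSG00000204267.15, chromosome 6, 32821833 to 32838770, minus strand) had 47.4, 48.8 and 48.2 CPM in H1047R, 40.4, 41.7 and 40.8 CPM in E545K, and 37, 37.3 and 41.9 CPM in WT. It rose by 0.31 ± 0.05 in H1047R against WT (5.41e-05) and by 0.23 ± 0.05 against E545K (0.000831), a call that was lost with library totals (0.10, 0.118). The value for E545K against WT was 0.08 ± 0.05 (0.227), and WT replicate 3 lay above the E545K libraries while WT replicates 1 and 2 lay below them.

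TAPBP (ENSG00000231925.11, chromosome 6, 33299694 to 33314387, minus strand), which bridges the pump and the empty class I molecule, had 73.2, 78.4 and 79.3 CPM in H1047R, 59, 55.7 and 58 CPM in E545K, and 73.3, 76.5 and 77.4 CPM in WT. Its E545K libraries lay below all others, and its H1047R and WT libraries overlapped. It fell by 0.40 ± 0.04 in E545K against WT (adjusted p = 4.71e-06) and was 0.42 ± 0.04 higher in H1047R than in E545K (1.24e-06). In H1047R against WT it was 0.02 ± 0.04 (0.682), beside 0.96 for HLA-B.

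PSMB9 (ENSG00000240065.8, chromosome 6, 32844136 to 32859851, plus strand), a catalytic subunit that takes the place of PSMB6 in the immunoproteasome, had 3.88, 3.62 and 3.51 CPM in H1047R, 2.93, 3.36 and 3.06 CPM in E545K, and 3.4, 3.9 and 3.8 CPM in WT. The H1047R and WT libraries overlapped (−0.01 ± 0.09, adjusted p = 0.95). PSMB9 was 0.24 ± 0.09 higher in H1047R than in E545K (0.0463), a call that was lost without any one of WT replicates 2 and 3, E545K replicates 1 and 3, and H1047R replicates 1 and 2, at adjusted p = 0.0542 to 0.162. In E545K against WT it was −0.25 ± 0.10 (0.0647), and without WT replicate 1 it was called lower, at −0.31 (0.0434).

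TAP1 and PSMB9 lie head to head, with 487 bases between their RefSeq starts, and their 250-base windows share 13 bases. Despite this, the values of the neighbours parted in H1047R: TAP1 counts over PSMB9 counts were 15.9, 17.5 and 17.4 in H1047R, 16.3, 13 and 14.6 in E545K, and 13.5, 12.2 and 12.7 in WT. H1047R lay above WT without overlap and overlapped E545K. The windows on either side of the shared stretch are shown with the same capitals as above, each read along its own gene.
TAP1 (chr6:32853705-32853954, minus strand): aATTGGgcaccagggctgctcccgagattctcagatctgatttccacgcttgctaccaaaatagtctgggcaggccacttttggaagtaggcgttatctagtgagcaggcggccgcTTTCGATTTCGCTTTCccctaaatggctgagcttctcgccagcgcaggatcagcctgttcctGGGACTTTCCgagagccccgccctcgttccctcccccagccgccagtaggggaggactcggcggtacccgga
PSMB9 (chr6:32853942-32854191, plus strand): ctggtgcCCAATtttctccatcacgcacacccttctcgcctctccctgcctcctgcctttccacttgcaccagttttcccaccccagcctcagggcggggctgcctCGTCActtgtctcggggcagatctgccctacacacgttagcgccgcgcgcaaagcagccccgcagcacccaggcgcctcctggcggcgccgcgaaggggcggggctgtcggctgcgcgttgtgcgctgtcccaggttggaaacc
The TAP1 window holds 2 overlapping interferon-response cores at −134 to −119 and an NF-kB match at −72 to −63. In the PSMB9 window the capitals are a CCAAT box at −243 to −239 and a CRE core, on the other strand, at −144 to −140.

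Of the 9 genes, 7 were called higher in H1047R against WT, where 27.4% of all genes tested were, and 0 were called lower, where 28.1% were. The 2 not called were TAPBP and PSMB9. In H1047R against E545K 9 of 9 were called higher (25.9% of all genes) and 0 lower (27.3%). E545K against WT gave 1 higher call (17.7% of all genes) and 5 lower (18.9%). At least 2-fold rises were 1 of 9 in H1047R against WT, HLA-F (10.0% of all genes), 3 of 9 in H1047R against E545K, HLA-B, HLA-F and B2M (7.74%), and 0 of 9 in E545K against WT (4.52%). The median log2 fold change of the 9 was 0.39, 0.45 and −0.17 in H1047R against WT, H1047R against E545K and E545K against WT, and that of all genes tested was 0.02, 0.02 and 0. Both comparisons with H1047R share its libraries, and both comparisons with WT share the WT libraries. Since the 9 genes were chosen with earlier results of these data known, the counts describe them and are no independent support.

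**Figure D4:**
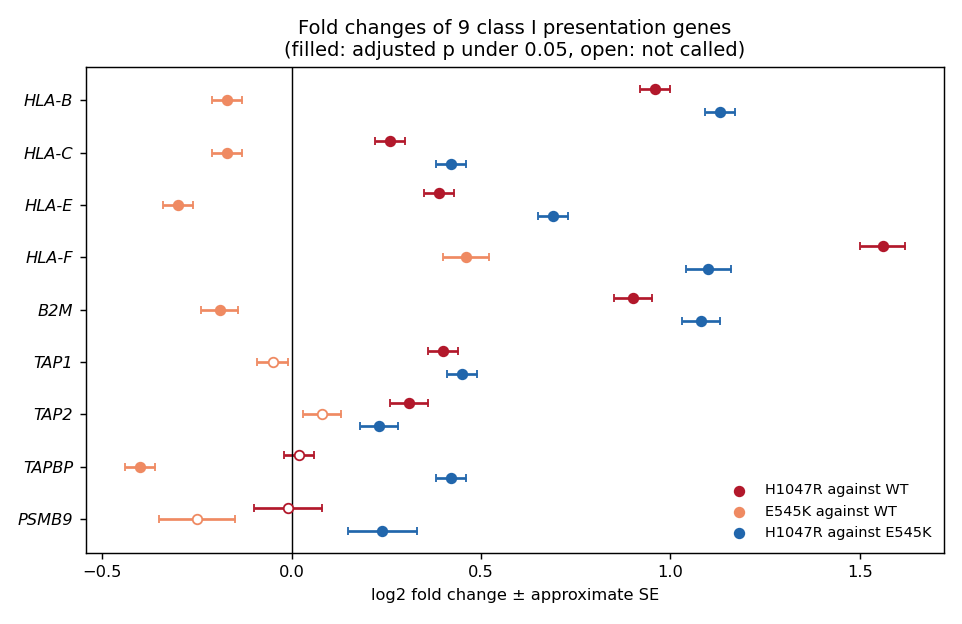
Log2 fold change (points) ± approximate SE (bars) of the 9 genes in H1047R against WT, E545K against WT and H1047R against E545K, with filled points for an adjusted p under 0.05. HLA-B, HLA-C, HLA-E and B2M lie left of 0 in E545K against WT and right of 0 in H1047R against WT, while HLA-F lies right of 0 in both.

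HLA-B, HLA-C, HLA-E and B2M were called in opposite directions in the 2 knock-in lines, each against WT. Non-overlapping libraries gave like counts: 7 of 9 genes were higher in each H1047R library than in each WT library (29.8% of all genes), 9 of 9 were higher in H1047R than in E545K (28.7%), and in E545K against WT 1 was higher (26.7%) and 6 lower (27.5%). Scaling by totals alone moved the median of all genes to 0.10 in E545K against WT and −0.12 in H1047R against E545K. The share of all calls that were higher was then 66.1% against 48.3% with TMM in E545K against WT, and 33.2% against 48.7% in H1047R against E545K. Under that scaling 2 of the 9 were called lower and 2 higher in E545K against WT, and 7 higher in H1047R against E545K.

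Class I genes are alike in sequence, and several of the 9 share exon bases with other annotated genes. A read over several genes was counted for each, so genes that share exon bases do not have independent counts. No option was set to count reads with several alignments. HLA-B shares 18.9% of its exon bases, with HLA-C and the unnamed pseudogene ENSG00000271581, which averaged 26, 9.69 and 11.2 CPM in H1047R, E545K and WT. HLA-C shares 1.4%. HLA-F shares 28%, with 3 genes of which ENSG00000225864, a pseudogene, was highest at 5.58, 2.58 and 1.66 CPM. The pseudogene HLA-H, a close copy of classical heavy chains elsewhere in the MHC, had 6.83, 3.51 and 3.59 CPM. HLA-E, TAPBP and B2M share no exon bases with another gene. TAP2 shares 32.2% with ENSG00000250264, a protein-coding gene model that had 47.8, 41.7 and 39 CPM, close to TAP2 itself, so the 2 could not be separated. TAP1 shares 12% with the antisense gene PSMB8-AS1, which had 8.78, 6.61 and 6.38 CPM, and strand was not used in counting.

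8 of the 9 genes lie in the MHC on the short arm of chromosome 6 and B2M on chromosome 15. Within the stretch from 1 Mb before HLA-F to 1 Mb after TAPBP (28722775 to 34314387), 165 other genes were tested. In H1047R against WT 48 (29.1%) were called higher and 50 (30.3%) lower, with a median of 0.01. These shares lie near the 27.4% and 28.1% of all genes tested. In H1047R against E545K 55 (33.3%) were higher and 35 (21.2%) lower, with a median of 0.12, beside 25.9% and 27.3% of all genes. Of the 165 genes 16 (9.7%) were higher and 44 (26.7%) lower in E545K against WT, with a median of −0.06, beside 17.7% higher and 18.9% lower of all genes tested. The 116 protein-coding genes among them had 14 higher and 39 lower (33.6%) in E545K against WT, with a median of −0.10. Among the 1119 genes tested on the rest of chromosome 6, the medians were 0.03, −0.02 and 0.03 in the same order of comparisons.

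Likeness was measured as the root-mean-square distance between log2 CPM, each centred over the 9 libraries, among genes with a mean of at least 10 CPM. It describes these 9 libraries only. HLA-F and PSMB9 averaged under 10 CPM over the 9 libraries and so could not rank as neighbours of another gene. The 3 genes nearest to HLA-B were NSG1 (distance 0.0354), B2M (0.0486) and CDC42EP4 (0.0525), so B2M, on another chromosome, ranked 2 of 10308 while HLA-C, beside HLA-B, ranked 987. B2M had HLA-B (0.0486), CDC42EP4 (0.0554) and the ribosomal protein gene RPL41 (0.0608) nearest. TAP1 had SERTAD2 (0.0258), TUG1 (0.0282) and ATF6 (0.033) nearest, while HLA-C ranked 198 and TAP2 ranked 689. PSMB9 had ENSG00000273138 (0.051), NCKAP5L (0.0565) and CBX8 (0.0579) nearest.

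The other genes of peptide supply and loading rose more often than they fell in H1047R. Of 11 tested, 6 were called higher and 2 lower in H1047R against WT (median 0.15). In H1047R against E545K 6 were higher and 3 lower (0.23), or 5 and 4 with library totals. In E545K against WT 1 was higher and 2 lower (−0.01), or 5 and 2 with library totals. All genes tested gave 27.4% higher and 28.1% lower calls in H1047R against WT. Their shares were 25.9% and 27.3% in H1047R against E545K, and 17.7% and 18.9% in E545K against WT. PSMB8, an immunoproteasome subunit between TAP2 and TAP1, had 28.6, 27.4 and 27.8 CPM in H1047R, 20.2, 17.5 and 18 CPM in E545K, and 18.5, 18 and 19.8 CPM in WT. It rose by 0.59 ± 0.06 in H1047R against E545K (adjusted p = 6.51e-07) and by 0.57 ± 0.06 against WT (6.78e-07). TAPBPL, which edits class I peptides outside the pump complex, averaged 9.83, 7.51 and 6.76 CPM in H1047R, E545K and WT (0.54 ± 0.06 in H1047R against WT, 3.17e-06). ERAP1, which trims peptides in the endoplasmic reticulum, averaged 71.6, 54.8 and 65 CPM and was called higher in H1047R than in E545K (9.6e-07). The loading-complex member PDIA3 went the other way, with 172 CPM in H1047R, 219 in E545K and 228 in WT (−0.41 ± 0.07 in H1047R against WT, 0.000112).

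The standard core subunits of the proteasome fell or were not called in H1047R. Of the immunoproteasome subunits, PSMB8 and PSMB10 rose in H1047R against WT, PSMB10 by 0.25 ± 0.05 (adjusted p = 0.000805), and PSMB9 was not called. PSMB10 shares 39.4% of its exon bases with another gene. Of 14 standard subunits tested, 0 were called higher and 8 lower in H1047R against WT (median −0.21), and 0 higher and 13 lower in H1047R against E545K (−0.43). By contrast 9 were higher and 0 lower in E545K against WT (0.20). Among all genes tested, 27.4% were called higher and 28.1% lower in H1047R against WT. The shares were 25.9% and 27.3% in H1047R against E545K, and 17.7% and 18.9% in E545K against WT. PSMB6, the subunit that PSMB9 replaces, had 43.7, 38.7 and 35.8 CPM in H1047R, 59.2, 62.9 and 61.7 CPM in E545K, and 58.3, 60.7 and 57.2 CPM in WT, and fell by 0.64 ± 0.06 in H1047R against E545K (adjusted p = 4.41e-07). PSMB2 averaged 59.1, 98.8 and 83.7 CPM (−0.74 ± 0.05 in H1047R against E545K, 2.97e-08). PSMA2, on chromosome 7 and sharing 34.5% of its exon bases, averaged 63.4 CPM in H1047R, 129 in E545K and 60.1 in WT (1.10 ± 0.05 in E545K against WT, 8.46e-10).

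The ratio of each immunoproteasome subunit to the standard subunit it replaces was highest in the H1047R libraries. PSMB9 counts over PSMB6 counts were 0.0889, 0.0936 and 0.0981 in H1047R, 0.0495, 0.0534 and 0.0496 in E545K, and 0.0583, 0.0643 and 0.0663 in WT. No 2 groups overlapped, although PSMB9 itself was not called in H1047R against WT. PSMB8 over PSMB5 averaged 0.35 ± 0.03, 0.191 ± 0.0128 and 0.224 ± 0.0168 (SD, n = 3) in H1047R, E545K and WT. PSMB10 over PSMB7 averaged 0.321 ± 0.0159, 0.219 ± 0.00961 and 0.232 ± 0.00671, with H1047R above both other groups without overlap and E545K overlapping WT.

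Among molecules built like class I heavy chains, the stress ligands of natural killer cells mostly fell in H1047R. The others tested moved in both directions. Of 8 tested of 10 in all, 1 was called higher and 6 lower in H1047R against WT (median −0.39), where 27.4% and 28.1% of all genes tested were. With upper-quartile scaling 4 were called lower in this comparison. In H1047R against E545K 2 were higher and 5 lower (−0.32), beside 25.9% and 27.3% of all genes. In E545K against WT 2 were higher and 1 lower (−0.07), beside 17.7% and 18.9%. The one that rose in H1047R against WT was MR1, which presents vitamin metabolites to mucosal T cells. MR1 had 121 ± 6.9 CPM in H1047R and 58.2 ± 0.992 CPM in WT (SD, n = 3, 1.05 ± 0.04, adjusted p = 4.64e-11), with 70.5 ± 1.18 CPM in E545K. HFE was called lower in H1047R against WT (−0.38 ± 0.05, adjusted p = 1.25e-05). HLA-G, at 0.32, 0.179 and 0.19 CPM in H1047R, E545K and WT, was called only in H1047R against E545K, as higher (0.83 ± 0.33, adjusted p = 0.0455). The stress ligand MICB, in the MHC near HLA-B, averaged 1.49 ± 0.159, 2.14 ± 0.153 and 3.78 ± 0.363 CPM in H1047R, E545K and WT. It fell by 1.34 ± 0.12 in H1047R against WT (1.65e-07) and by 0.81 ± 0.12 in E545K against WT (8.7e-05).

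Factors known to act on class I promoters moved in both directions. Of 13 tested, 4 were called higher and 6 lower in H1047R against WT (median −0.06), 2 higher and 5 lower in H1047R against E545K (−0.03), and 3 higher and 4 lower in E545K against WT (−0.11), or 4 and 1 with library totals. With library totals the count in H1047R against E545K was 2 higher and 9 lower. Of all genes tested, 27.4% were called higher and 28.1% lower in H1047R against WT, 25.9% and 27.3% in H1047R against E545K, and 17.7% and 18.9% in E545K against WT, so several of these counts lie near the share of all genes. NFYB and NFYA are subunits of the factor that binds CCAAT. NFYB rose to 115 ± 10.5 CPM in H1047R, against 33.3 ± 0.822 CPM in WT (1.79 ± 0.06, adjusted p = 2.12e-12) and 45.2 ± 1.03 CPM in E545K (1.35 ± 0.06, 6.54e-11). NFYA had 14 ± 1.12 CPM in H1047R and 21.8 ± 0.126 CPM in WT (−0.63 ± 0.06, 1.57e-07). The class I transactivator NLRC5 averaged 9.29, 11.3 and 11 CPM in H1047R, E545K and WT, and was called lower in H1047R against WT (−0.24, 0.00452). IRF1, which binds interferon-response elements, averaged 29.9, 32.9 and 21.7 CPM, and rose in E545K against WT (0.60 ± 0.05, 1.1e-07) and in H1047R against WT (0.47 ± 0.05, 5.9e-07).

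Interferon receptors and signalling genes changed in both directions too. Of 16 tested, 8 were called higher and 5 lower in H1047R against WT (median 0.12) and likewise 8 and 5 in H1047R against E545K (0.09), and 4 higher and 7 lower in E545K against WT (−0.02), or 6 and 4 with library totals. With library totals H1047R against E545K gave 7 higher and 7 lower, and the median turned to −0.05. All genes tested gave 27.4% higher and 28.1% lower calls in H1047R against WT, and 25.9% and 27.3% in H1047R against E545K. The 5 lower calls in each of these comparisons thus lie near the share of all genes. In E545K against WT the shares were 17.7% and 18.9%. The interferon-gamma receptor chain IFNGR1 averaged 165 ± 11.6, 89.4 ± 1.84 and 83.8 ± 1.53 CPM in H1047R, E545K and WT, and its kinase JAK2 33.7 ± 1.9, 18.6 ± 0.362 and 13.5 ± 0.479 CPM. In H1047R against WT IFNGR1 rose by 0.98 ± 0.05 (adjusted p = 2.37e-10) and JAK2 by 1.32 ± 0.05 (2.37e-11). The kinase JAK1 averaged 325 CPM in H1047R, 188 in E545K and 219 in WT (0.79 ± 0.05 in H1047R against E545K, 3.04e-09). The feedback inhibitor SOCS1 had 2.92 CPM in H1047R, 0.981 in E545K and 2.99 in WT (−1.61 ± 0.14 in E545K against WT, 3.83e-07). IFNLR1, the interferon-lambda receptor chain, had 1.57, 6.9 and 14.8 CPM (−3.23 ± 0.07 in H1047R against WT, 6.15e-14).

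Interferon-stimulated genes outside the pathway rose more often than they fell in both knock-in lines. Of 29 tested of 32, 18 were called higher and 5 lower in H1047R against WT (median 0.81), 12 higher and 4 lower in H1047R against E545K (0.16), and 15 higher and 2 lower in E545K against WT (0.41). With library totals H1047R against E545K gave 10 higher and 7 lower, with a median of 0.01. Among all genes tested, 27.4% were called higher and 28.1% lower in H1047R against WT. The shares were 25.9% and 27.3% in H1047R against E545K, and 17.7% and 18.9% in E545K against WT. EPSTI1 averaged 6.95 ± 0.36, 2.85 ± 0.143 and 1.15 ± 0.082 CPM in H1047R, E545K and WT, and IFI44L 8.04 ± 0.955, 2.63 ± 0.305 and 1.2 ± 0.172 CPM. The guanylate-binding protein GBP1 went the other way, at 18 ± 0.859 CPM in H1047R, 36.5 ± 1.81 in E545K and 54.5 ± 2.4 in WT (−1.60 ± 0.05 in H1047R against WT, adjusted p = 2.78e-12).

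**Figure D5:**
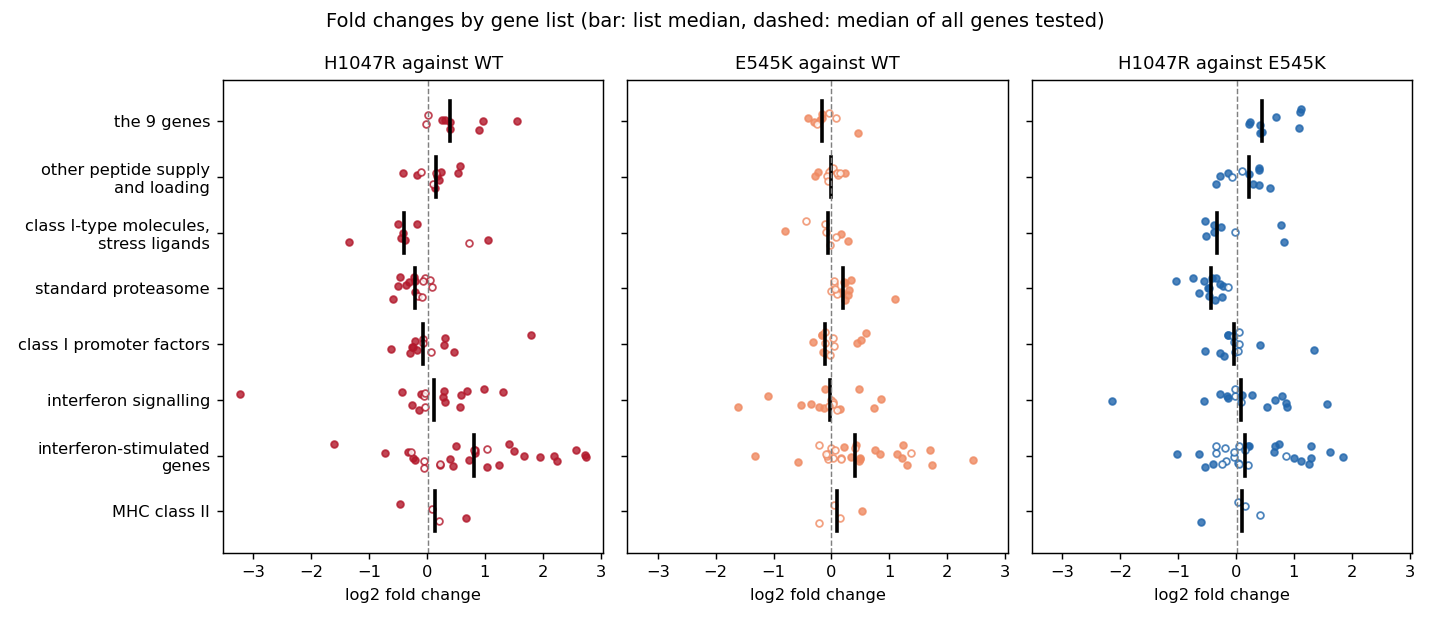
Log2 fold changes of the genes of each list (points, filled where the adjusted p was under 0.05) in the 3 comparisons, with the list's median as a bar and the median of all genes tested as a dashed line. The 9 genes have medians of 0.39, −0.17 and 0.45 in H1047R against WT, E545K against WT and H1047R against E545K, while the standard proteasome subunits have −0.21, 0.20 and −0.43.

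All 8 basal breast epithelial markers were detected, with a summed level of 29000 to 32600 CPM in H1047R, 26400 to 26900 in E545K and 31200 to 31800 in WT. KRT5 and KRT17 made up most of this sum. Of the 8, 3 were called higher and 4 lower in H1047R against WT, among them COL17A1 (0.70 ± 0.04) and LAMB3 (−0.81 ± 0.04). The 8 luminal markers summed to 423 to 526 CPM in H1047R, from 536 CPM upward in E545K and 1390 to 1480 CPM in WT, and ELF5 was under 0.5 CPM in every library. KRT8 and KRT18 made up most of the luminal sum. Of 7 luminal markers tested, GATA3 was called higher in H1047R against WT (1.07 ± 0.06) and 4 were called lower. In E545K against WT FOXA1 was called higher (1.31 ± 0.12) and 5 were called lower. Leukocytes carry much class I RNA. Their 10 markers summed to 8.65 to 10.2 CPM in H1047R, 12.6 to 13.2 in E545K and 16.6 to 17.4 in WT, and PTPRC, CD3E, MS4A1, LYZ, ITGAX and NKG7 were under 0.5 CPM in every library. Most of the sum was CD68 and CD14. CD68 shares 85.6% of its exon bases with 2 other genes, so its count may hold reads of those genes. CD68 had 5.4, 7.04 and 10.9 CPM in H1047R, E545K and WT, and CD14 had 2.53, 5.03 and 5.16 CPM. ITGAM went the other way, at 1.5 CPM in H1047R, 0.466 in E545K and 0.362 in WT (2.05 ± 0.21 in H1047R against WT, edgeR adjusted p = 6.95e-07), and its part in the results was not tested. The 8 fibroblast markers summed to 103 to 113, 114 to 117 and 119 to 126 CPM in H1047R, E545K and WT. Of 7 tested, COL1A1 was called higher in H1047R against WT (0.49 ± 0.06) and 3 were called lower, among them DCN (−1.85 ± 0.08). The 6 endothelial markers summed to 22 to 23.7, 10.6 to 12.3 and 8.52 to 10.3 CPM, with PECAM1 and CDH5 under 0.5 CPM in every library. KDR made up nearly all of the endothelial sum, at 22.5, 10.7 and 8.66 CPM in H1047R, E545K and WT, while VWF had 0.195, 0.353 and 0.728 CPM (−1.89 ± 0.28 in H1047R against WT, adjusted p = 4.05e-05). Of the 4 endothelial markers tested, 1 was called higher and 1 lower in H1047R against WT, with a median of 0.05. Among all genes tested, 27.4% were called higher and 28.1% lower in H1047R against WT, and 17.7% and 18.9% in E545K against WT.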

How the data were processed

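RNA-seq gene counts of 9 libraries were used as deposited. Per the file headers, featureCounts 2.0.0 counted exons of GENCODE 32 (hg38) without strand, took each mate by itself and counted reads over several genes for each, with no option for reads with several alignments. Per the submitters' processing notes, STAR, SAMtools 1.5, FastQC, cutadapt and Trim Galore 0.4.0 were used upstream. GENCODE 44 gave symbols for 60295 of 60609 identifiers, and the counts of every column were used.

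Counts were tested with edgeR 4.0.16 (R 4.3.3): filterByExpr, TMM, and a quasi-likelihood fit with genotype as its 1 term to the 9 libraries. The approximate SE is the log2 fold change over the square root of F. Simulated data were drawn with a single biological coefficient of variation, 0.118, for every gene and genotype. On these, 200 of 200 genes changed by a log2 value of 1 in H1047R were called in each H1047R comparison. At 0.5, 75 of 200 (H1047R against WT) and 79 of 200 (H1047R against E545K) were called. The spread within each real genotype differed from 0.118, so these shares do not carry over to the real libraries. A count of 0 allows up to 3 counts, 0.00495 to 0.0315 CPM, for counting error only. No 2 replicate libraries agreed within sampling noise (chi-square per gene 3.73 to 182).

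The choice of the 9 genes, the lists and the naming rule was made with earlier results of these data known. The rule took list genes called with a log2 change of at least 0.58 and at least 1 CPM, up to 4 per list and comparison plus up to 2 that went the other way. TAPBPL, ERAP1, PDIA3, NLRC5, HFE and HLA-G were picked after their values were seen. No set test was run. DESeq2 1.42.0 was one alternative. Promoters are from RefSeq (GRCh38.p14). Some genes of the lists are not reported here by name.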

Additional observations from a re-analysis of the deposited data

Results flagged for a closer look

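Each of the following genes was called in opposite directions in the 2 knock-in lines against WT, and the difference between the lines was itself tested. HLA-B was at 0.96 in H1047R against WT and −0.17 in E545K against WT on the log2 scale, and the lines differed by 1.13 (edgeR adjusted p = 5.33e-12). B2M was at 0.90 and −0.19, and the lines differed by 1.08 (8.76e-11). HLA-E was at 0.39 and −0.30, a difference of 0.69 (2.27e-09), and HLA-C at 0.26 and −0.17, a difference of 0.42 (2.59e-07). In E545K against WT, the calls of HLA-B, HLA-C and B2M were lost with library totals as the only scaling, and that of HLA-E was kept. Of the genes around the pathway, the kinase gene JAK1 was at 0.57 and −0.22, a difference of 0.79 (3.04e-09). The standard proteasome subunit PSMB2 was at −0.50 and 0.24, a difference of −0.74 (2.97e-08). The depth, the miscellaneous RNA share and the count table of H1047R move with all 6 differences, and their part was not tested.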

How the results depend on the processing

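Of 486 alternative values of the 9 genes, 454 kept their direction and their side of the threshold, as did 827 of 827 of the named list genes. In H1047R against WT 7 genes were called higher under every alternative run. In E545K against WT 2 of the 9 were called higher with library totals only and with only the 2 groups compared, and 1 to 2 when a library was left out, since TAP2 was then also called without WT replicate 3 (0.14, adjusted p = 0.041). With library totals only, 2 were called lower in place of 5, and 6 were with protein-coding genes only, with only the 2 groups compared and without WT replicate 1. In H1047R against E545K 7 were called with library totals, where TAP2 (0.10, 0.118) and PSMB9 (0.10, 0.382) were lost, and 8 with DESeq2 and with only the 2 groups compared, where PSMB9 was lost (0.0839 and 0.0706). Values that changed sign were all uncalled. TAP1 in E545K against WT was 0.04 with library totals. TAPBP in H1047R against WT was −0.02 with library totals, −0.01 with only the 2 groups compared and −0.00 without WT replicate 1. PSMB9 in H1047R against WT was 0.05 with upper-quartile scaling, 0.03 without a filter, 0.03 with at least 1 CPM in 3 libraries, 0.06 with protein-coding genes only, and −0.07 to 0.03 when a library was left out, above 0 without WT replicate 2 or 3 or H1047R replicate 2 or 3. The cause was not tested. Replicate numbers did not pair the libraries (correlations of deviations −0.0348 to 0.0227). With the replicate block 8 of the 9 were called higher in H1047R against E545K, PSMB9 being lost (0.24, 0.0579), and the other counts stayed at 7, 1 and 5. PSMB9, the lowest of the 9 in CPM, has the widest SE (0.09 to 0.10) and is the least precise.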

Other observations

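MHC class II genes, which present peptides taken up from outside and are normally made by immune cells, were mostly low. Of the 12 genes of the list, 4 passed the filter, namely CIITA, HLA-DOB, CD74 and HLA-DMA, and the other 8 averaged at most 0.108 CPM in any genotype. The class II transactivator CIITA averaged 26.9, 26.2 and 25.5 CPM in H1047R, E545K and WT and was not called in any comparison, while its targets HLA-DRA (0.108, 0.0232 and 0 CPM), HLA-DRB1 and HLA-DQA1 stayed under the filter. CIITA shares 23.4% of its exon bases with 3 other genes, among them DEXI, and reads there were counted for each gene. How much of the CIITA count came from those genes was not tested. HLA-DOB, of which 30.4% of exon bases are shared with the gene model that also overlaps TAP2, was called higher in H1047R against WT (0.68 ± 0.16 on the log2 scale, edgeR adjusted p = 0.00232). CD74, the invariant chain, was lower in H1047R than in E545K, at 1.16 ± 0.207 and 1.77 ± 0.134 CPM (SD, n = 3, −0.61 ± 0.16, 0.0039).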
